A study of Mus musculus with 6 samples.

Results

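The 9 genes described here are outputs and regulators of the circadian clock: Dbp, Tef, Hlf, Nfil3, Bhlhe40, Bhlhe41, Ciart, Rora and Usp2. They were found by their symbols among the 21367 genes of the deposited table, each in 1 row, and all 9 were among the 13036 genes that passed the filter on low counts. The set was chosen from measured values of these same mice, because the difference between the groups in these genes was already known. Their differences between the groups are therefore given as a description, and nothing is supported with them. Dbp, Tef, Hlf and Nfil3 encode bZIP factors and Bhlhe40 and Bhlhe41 encode bHLH factors, whereas Ciart, Rora and Usp2 encode a repressor of another kind, a nuclear receptor and a deubiquitinase.

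Kidney RNA came from 3 mice heterozygous for the viable motheaten allele of Ptpn6 (Ptpn6+/mev) and from 3 wild-type littermates, all on a C57BL/6 background and 7 weeks old. In all 6 mice the right kidney was taken out, the left renal pedicle was closed for 34 min, and the left kidney was collected after 24 h of reperfusion, with 1 library per mouse. Ptpn6 encodes the tyrosine phosphatase SHP-1, and the allele is a germline splice mutation, so it is carried by every cell type of the kidney and by the blood cells in it. Kidneys without ischemia were not analysed here, so each difference is one between 2 groups of injured kidneys. The hour of the day at which the mice were operated on and killed is not given in the sources used here, and its part in the results was not tested. Ptpn6 mRNA itself, which the splice mutation need not lower, read 11.9, 14.7 and 13.6 FPKM in the Ptpn6+/mev mice and 17.5, 10.9 and 15.4 FPKM in wild-type replicates 1 to 3, so its level does not check the genotype labels.

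In the circadian clock, the activators CLOCK and BMAL1 (encoded by Arntl) bind E-box sequences and switch on their own repressors, the PER and CRY proteins, and a set of output factors. The PAR bZIP activators DBP, TEF and HLF then bind D-box sequences in genes of metabolism and transport, and NFIL3 (also called E4BP4) represses the same D-boxes, so that the balance of the activators and NFIL3 shapes the daily rhythm of those genes. In the kidney, rhythms of this kind are known for tubular transport, blood pressure and the handling of drugs. The levels of such genes depend on the hour at which tissue is taken, and many of them also respond to hypoxia, feeding and glucocorticoids.

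Sequence upstream of the gene start was read from RefSeq windows of GRCm38.p6 that begin 250 bases before the RefSeq start, from which distances are counted. The gene positions given further on are those of GENCODE M21, whose starts differ for some genes, and the first Tef window lies wholly in a GENCODE exon. A window was found for 8 of the 9 genes, with 1 more for a second start of Tef, 9 windows in all, and Bhlhe40 was not matched. The clock's E-box, CACGTG (searched on both strands, on which it reads alike), occurred in 4 of the 9 windows, in 3 genes, and in 6.02% of the 32851 windows of all genes. Ciart held 3 copies, starting 116, 58 and 44 bases before its RefSeq start. Tef held 1 copy in each of its windows, and Bhlhe41 held 1 copy 153 bases before its RefSeq start. Stretches of these 3 genes are shown because they hold the E-box letters, and those of Dbp and Hlf because these genes had the largest differences between the groups but no CACGTG in their windows. The E-box is in capitals, each stretch reads 5′ to 3′ on the strand of the gene, and bases that the GENCODE M21 annotation places in an exon of a protein-coding gene were left out. The stretches lie at chr3:95882252-95882478 (minus strand, Ciart), chr15:81811164-81811413 (plus strand, the second start of Tef), chr6:145865559-145865670 (minus strand, Bhlhe41), chr7:45704997-45705087 (plus strand, Dbp) and chr11:90390918-90391167 (minus strand, Hlf).
Ciart: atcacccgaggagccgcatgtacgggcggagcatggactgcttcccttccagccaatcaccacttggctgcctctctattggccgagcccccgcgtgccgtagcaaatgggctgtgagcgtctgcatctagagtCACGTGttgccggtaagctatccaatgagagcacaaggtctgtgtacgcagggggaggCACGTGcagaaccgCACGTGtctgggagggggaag
Tef: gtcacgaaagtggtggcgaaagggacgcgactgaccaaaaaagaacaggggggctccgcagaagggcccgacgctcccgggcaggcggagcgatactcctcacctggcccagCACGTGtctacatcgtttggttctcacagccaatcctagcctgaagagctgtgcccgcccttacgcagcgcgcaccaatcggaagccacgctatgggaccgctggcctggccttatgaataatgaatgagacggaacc
Bhlhe41: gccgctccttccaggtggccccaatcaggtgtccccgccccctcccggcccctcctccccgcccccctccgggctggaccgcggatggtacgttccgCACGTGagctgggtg
Dbp: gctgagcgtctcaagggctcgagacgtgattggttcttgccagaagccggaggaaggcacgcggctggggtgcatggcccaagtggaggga
Hlf: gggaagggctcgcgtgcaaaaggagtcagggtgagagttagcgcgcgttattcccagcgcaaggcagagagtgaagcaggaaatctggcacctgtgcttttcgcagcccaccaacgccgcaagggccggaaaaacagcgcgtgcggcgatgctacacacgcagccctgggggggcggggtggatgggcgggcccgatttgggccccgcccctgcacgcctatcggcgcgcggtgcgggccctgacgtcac

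The D-box TTATGTAA, the site of DBP, TEF, HLF and NFIL3, occurred in none of the 9 windows on either strand, and in 0.819% of all windows. The letters AGGTCA, which the nuclear receptors of the ROR and REV-ERB families read, occurred in 1 window, that of Nfil3, and in 14.02% of all windows. The core letters of the hypoxia response element, ACGTG, which also lie inside the E-box, occurred in 6 windows of 5 genes and in 16.6% of all windows. A match of letters is a description of the sequence and not a measured site, and sites further away, such as those known in introns of Dbp, lie outside these windows.

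Counts per library summed to between 10271590 and 12361745, and pairs of libraries of 1 group differed by more than counting noise, at 6.48 to 45.3 by the chi-square statistic over its degrees of freedom. Wild-type replicate 2 stood apart, with the lowest scaling factor (0.929 against 0.994 to 1.029) and with the lowest summed FPKM of 8 endothelial markers, 127.3 against up to 333.1 in wild-type and 287.3 to 310.6 in Ptpn6+/mev mice. Its summed fibroblast and macrophage markers were the lowest of the 6 libraries as well. By edgeR's quasi-likelihood test with Benjamini-Hochberg adjustment, 18 of the 13036 genes, 0.138%, differed at an adjusted p under 0.05, 9 of them higher and 9 lower in Ptpn6+/mev mice. None of the 9 clock output genes was among them, with adjusted p from 0.159 to 0.94. At an unadjusted p under 0.05, which 12.2% of all genes reached, there were 3: Dbp, Tef and Hlf. DESeq2 called these 3, where it called 2.97% of all genes, and edgeR's exact test called Dbp and Hlf, where it called 2.99%. Because the genes were chosen on this comparison, nothing is read from these counts.

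The 3 PAR bZIP activators were all lower on average in the kidneys of Ptpn6+/mev mice, Dbp and Hlf to about the same share of the wild-type mean and Tef less so. NFIL3, their opponent at D-boxes, was not lower. The bHLH repressor genes, Ciart, Rora and Usp2 had smaller differences or ones with larger errors, and 6 of the 9 fold changes were below 0. The median log2 fold change over the 9 genes was -0.39, and that over all tested genes was -0.002. Since whole kidney was sequenced, fewer cells of a type and less RNA per cell cannot be told apart.

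**Figure D1:**
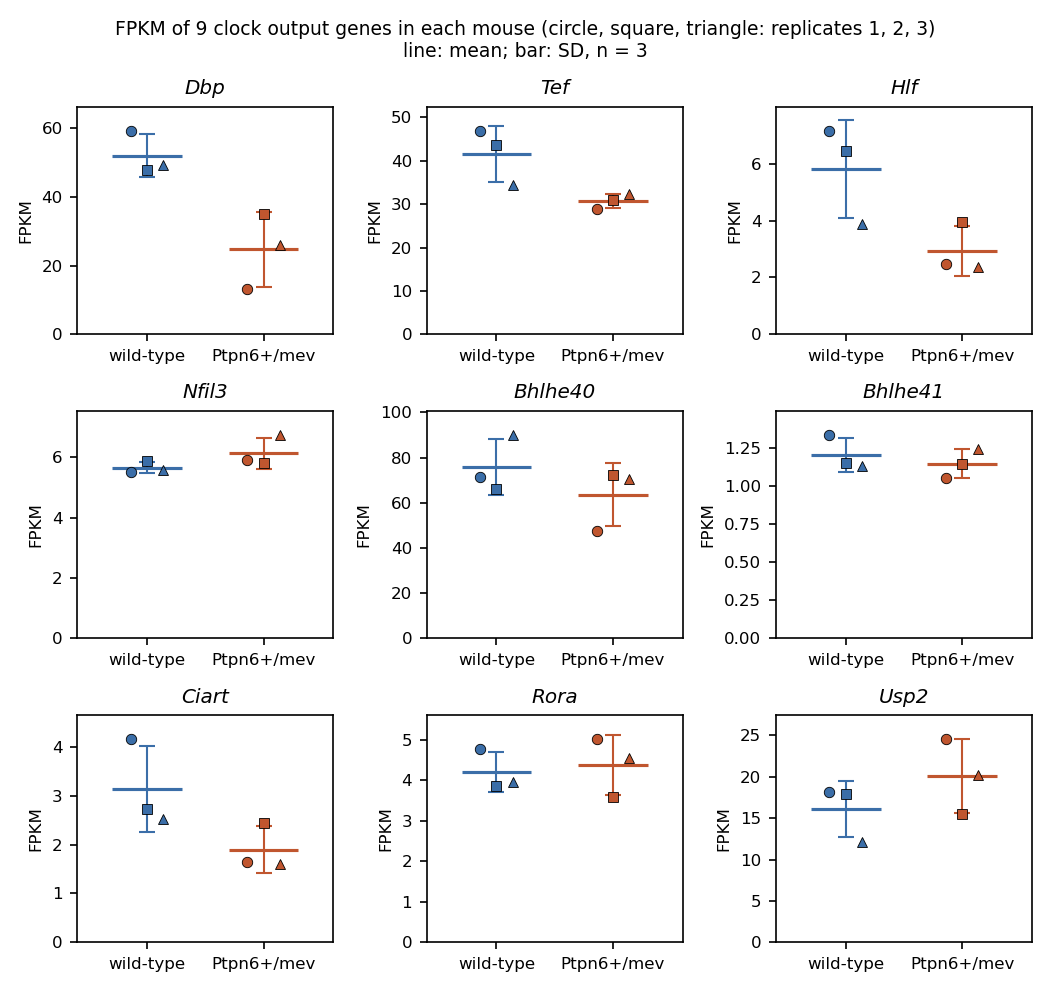
Level of each of the 9 clock output genes in FPKM (vertical axes, each from 0) in the 3 wild-type and the 3 Ptpn6+/mev mice. Circles, squares and triangles are replicates 1, 2 and 3, the horizontal line is the mean and the bar is the SD (n = 3). The Ptpn6+/mev points of Dbp, Tef and Ciart all lie under the wild-type points, and those of the other 6 genes overlap them.

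Dbp (ENSMUSG00000059824, chr7:45705088-45710203), the PAR bZIP factor with the strongest known rhythm, read 13.2, 34.8 and 26.0 FPKM in Ptpn6+/mev replicates 1 to 3 and 58.9, 47.6 and 49.1 FPKM in wild-type replicates 1 to 3. Every Ptpn6+/mev mouse was below every wild-type mouse, and the spread was wider among the Ptpn6+/mev mice, of which replicate 1 was lowest. The means were 24.7 ± 10.9 FPKM (SD, n = 3) and 51.9 ± 6.15 FPKM (SD, n = 3), so that Ptpn6+/mev kidneys held 47.5% of the wild-type level in FPKM. The log2 fold change, which is that of the scaled counts, was -1.17 (SE 0.29). Without Ptpn6+/mev replicate 1 it was -0.87, the smallest size when any 1 library was left out. Dbp was also the only member with fractional counts. Its 3′ end shares 539 exon bases with Sphk2 on the other strand, the gene of a sphingosine kinase, and whether counting used the strand is not given in the sources used here. Sphk2, chosen after its values were seen, had a log2 fold change of 0.18 (SE 0.11).

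Tef (ENSMUSG00000022389, chr15:81802421-81826863), a PAR bZIP factor with a shallower rhythm in most tissues, read 28.9, 30.9 and 32.3 FPKM in the Ptpn6+/mev mice and 46.8, 43.6 and 34.4 FPKM in wild-type replicates 1 to 3. The groups did not overlap, but wild-type replicate 3 lay close to the Ptpn6+/mev mice. The Ptpn6+/mev mean of 30.7 ± 1.71 FPKM (SD, n = 3) was 74.0% of the wild-type mean of 41.6 ± 6.45 FPKM (SD, n = 3), with a log2 fold change of -0.51 (SE 0.14). Tef was called by edgeR's quasi-likelihood test once wild-type replicate 3 was left out, at a log2 fold change of -0.65 and an adjusted p of 0.046, against 0.193 with all libraries and up to 0.542 without another one.

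Hlf (ENSMUSG00000003949, chr11:90336536-90390895), the third PAR bZIP activator, read 2.48, 3.94 and 2.38 FPKM in the Ptpn6+/mev mice and 7.13, 6.44 and 3.86 FPKM in wild-type replicates 1 to 3. The groups overlapped, since Ptpn6+/mev replicate 2 was just above wild-type replicate 3. The means of 2.93 ± 0.873 and 5.81 ± 1.72 FPKM (SD, n = 3 each) put the Ptpn6+/mev level at 50.5% of wild-type, with a log2 fold change of -1 (SE 0.27). Its sign was the same in all 15 alternatives, as it was for every other member except Nfil3 and Rora.

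Nfil3 (ENSMUSG00000056749, chr13:52967209-52981073), the D-box repressor that is also needed for innate lymphoid and NK cells, read 5.89, 5.79 and 6.72 FPKM in the Ptpn6+/mev mice and 5.52, 5.87 and 5.57 FPKM in the wild-type mice. The values overlapped and were the steadiest of the 9 genes among wild-type mice, with a coefficient of variation of 3.35%. The log2 fold change was 0.05 (SE 0.15). Of 9 markers of T, NK and innate lymphoid cells only Gata3, which kidney epithelium also makes, passed the filter, and the summed FPKM of the list was 3.36 to 4.19 in Ptpn6+/mev and 3.90 to 6.14 in wild-type mice.

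The activators were also summed and set against the repressor within each mouse. The summed FPKM of Dbp, Tef and Hlf was 44.6, 69.7 and 60.7 in the Ptpn6+/mev mice and 113, 97.6 and 87.3 in wild-type replicates 1 to 3. Divided by Nfil3 of the same mouse, the sum was 9.55 ± 2.28 (SD, n = 3) in Ptpn6+/mev and 17.6 ± 2.53 (SD, n = 3) in wild-type mice. Every ratio of a Ptpn6+/mev mouse, the highest of which was 12.0, lay below the lowest wild-type ratio of 15.7. Dbp and Tef, which are in the sum, were already apart between the groups, and Nfil3 overlapped. The ratio therefore restates their values, and nothing further is read from it. Dbp made up 29.6%, 49.96% and 42.8% of the sum in the Ptpn6+/mev mice and 52.2%, 48.8% and 56.2% in wild-type replicates 1 to 3, so the make-up of the activators overlapped between the groups.

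Bhlhe40 (ENSMUSG00000030103, chr6:108660629-108666925; also DEC1), a bHLH repressor that competes with CLOCK and BMAL1 for E-boxes and is known to respond to hypoxia, was the most abundant of the 9 genes. It read 47.6, 72.5 and 70.7 FPKM in the Ptpn6+/mev mice and 71.6, 66.1 and 89.9 FPKM in wild-type replicates 1 to 3. The groups overlapped, with Ptpn6+/mev replicate 1 lowest and wild-type replicate 3 highest. The log2 fold change was -0.31 (SE 0.18), and -0.13 without Ptpn6+/mev replicate 1.

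Bhlhe41 (ENSMUSG00000030256, chr6:145858243-145865558; also DEC2), its close relative and the least abundant member, gave a different picture in each unit. In FPKM the groups overlapped at 1.05, 1.14 and 1.24 in the Ptpn6+/mev mice and 1.33, 1.15 and 1.13 in wild-type replicates 1 to 3. In counts scaled to library size (CPM, with TMM factors) they did not, at 5.23, 5.77 and 6.33 against 8.21, 7.66 and 6.91. The difference of the mean log2 level was -0.07 in FPKM and -0.38 in CPM, and the log2 fold change of the counts was -0.39 (SE 0.19). The transcript length that count, FPKM and library total imply was 5100 to 5246 bases in Ptpn6+/mev and 6133 to 6177 bases in wild-type mice. The longest implied length of Bhlhe41 was thus 1.21 times the shortest, where the median of this ratio was 1.02 and its 90th percentile 1.27 over the 10356 genes with at least 50 counts in every library. Only 55 to 88 fragments per library lay behind Bhlhe41, and 1280 of its exon bases are shared with an unclassified transcript on the other strand, Gm43909.

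Ciart (ENSMUSG00000038550, chr3:95878503-95882251; also Chrono), a repressor of CLOCK and BMAL1 and the gene with 3 E-boxes above, read 1.64, 2.45 and 1.6 FPKM in the Ptpn6+/mev mice and 4.15, 2.73 and 2.52 FPKM in wild-type replicates 1 to 3. In FPKM the groups did not overlap, and in CPM they did, at 2.38, 3.03 and 2.35 against 5.6, 3.83 and 2.49. The ratio of its longest to its shortest implied length was 1.52, and it rested on 25 to 60 fragments per library. The log2 fold change was -0.61 (SE 0.34) and ranged from -0.87 to -0.27 when 1 library was left out. Wild-type replicate 1 held the highest value in both units, and it was the library whose absence gave -0.27.

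**Figure D2:**
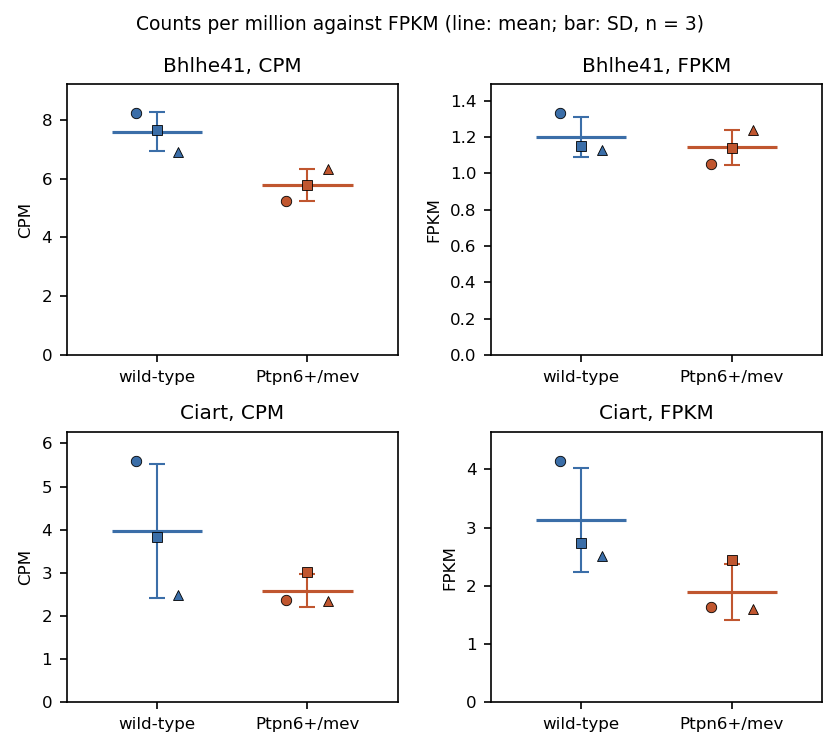
Bhlhe41 (top) and Ciart (bottom) in CPM (left) and in FPKM (right), each axis from 0. Points are mice (circle, square and triangle for replicates 1, 2 and 3), the line is the mean and the bar the SD (n = 3). The groups are apart for Bhlhe41 in CPM only and for Ciart in FPKM only.

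By FPKM, 3 of the 9 genes (Dbp, Tef and Ciart) were lower in every Ptpn6+/mev mouse than in every wild-type mouse, which held for 6.38% of all tested genes. By CPM there were also 3 (Dbp, Tef and Bhlhe41), where the share was 9.8%. None was higher in every Ptpn6+/mev mouse by either unit, where the shares of all genes were 14% by FPKM and 9.64% by CPM.

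Rora (ENSMUSG00000032238, chr9:68653786-69388246), the nuclear receptor that drives Arntl transcription, read 5.01, 3.58 and 4.54 FPKM in the Ptpn6+/mev mice and 4.78, 3.87 and 3.97 FPKM in the wild-type mice. The values overlapped fully, and the ratio of the longest to the shortest implied length was 1.44. Rora, Tef, Bhlhe40 and Usp2 share 82, 193, 118 and 200 exon bases with a gene on the other strand. The log2 fold change of 0.09 (SE 0.21) turned to -0.11 without Ptpn6+/mev replicate 1 and to -0.01 without wild-type replicate 3, so it has no direction in these data.

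Usp2 (ENSMUSG00000032010, chr9:44067021-44095627), a deubiquitinase whose mRNA is rhythmic in many tissues and whose substrates include clock proteins, read 24.5, 15.5 and 20.2 FPKM in the Ptpn6+/mev mice and 18.1, 17.9 and 12.2 FPKM in wild-type replicates 1 to 3. It had the highest fold change of the 9 genes, 0.28 on the log2 scale (SE 0.20), but the groups overlapped. Without Ptpn6+/mev replicate 1, the mouse with the highest Usp2 and the lowest Dbp, it was 0.09.

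**Figure D3:**
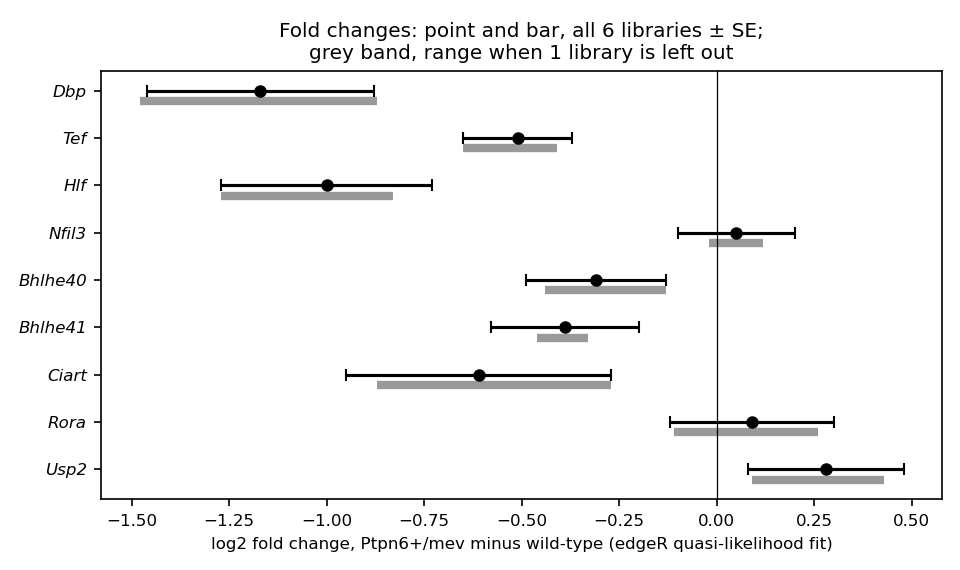
Log2 fold change of each gene (horizontal axis, Ptpn6+/mev minus wild-type), with the point and bar for the fit on all 6 libraries and its SE, and the grey band for the range when 1 library was left out. Dbp lies at -1.17, Hlf at -1 and Tef at -0.51 and their bands lie below 0, as do those of Bhlhe40, Bhlhe41 and Ciart. The band of Usp2 lies above 0, and the bands of Rora and Nfil3 cross 0.

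Ordered by mean FPKM over the 6 mice, the genes ran from Bhlhe40 (69.7 ± 13.6) over Dbp (38.3 ± 16.9), Tef (36.2 ± 7.28) and Usp2 (18.1 ± 4.18) to Nfil3 (5.89 ± 0.433), Hlf (4.37 ± 1.99), Rora (4.29 ± 0.566), Ciart (2.52 ± 0.930) and Bhlhe41 (1.17 ± 0.0977; SD, n = 6 for each). Neighbours in this order whose means differed by less than the sum of their SDs were Dbp and Tef, Nfil3 and Hlf, and Hlf and Rora. The order differed by group: every Dbp value lay above every Tef value in wild-type mice, while the Ptpn6+/mev mean of Dbp was below that of Tef. In Ptpn6+/mev mice every Nfil3 value lay above every Hlf value, while the wild-type means were 5.65 and 5.81 FPKM. The mean of Hlf was above that of Rora in wild-type mice (5.81 and 4.21 FPKM) and below it in Ptpn6+/mev mice (2.93 and 4.38 FPKM). Wild-type replicate 3 was the lowest wild-type mouse for Tef, Hlf, Bhlhe41, Ciart and Usp2 and the highest for Bhlhe40. Ptpn6+/mev replicate 1 was the lowest Ptpn6+/mev mouse for Dbp, Tef, Bhlhe40 and Bhlhe41 and the highest for Rora and Usp2.

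The core clock genes give the setting of these outputs. Of 12 listed, 11 passed the filter and 0 were called by the quasi-likelihood test, with 2 higher and 3 lower at an unadjusted p under 0.05 (12.2% of all genes in either direction) and a median log2 fold change of -0.21. The 3 most abundant did not pass the test: Nr1d1 (REV-ERBα, the repressor of Arntl) had a log2 fold change of -0.43 (SE 0.20), Per1 of 0.37 (SE 0.16) and Nr1d2 of -0.21 (SE 0.12). Arntl was the one core gene whose groups did not overlap in FPKM (14% of all genes were higher in this way), and in log2 CPM those of Per2 did not overlap either. Chosen after its values were seen, it read 6.29, 2.77 and 3.58 FPKM in the Ptpn6+/mev mice and 0.89, 1.29 and 2.25 FPKM in wild-type replicates 1 to 3, with a log2 fold change of 1.41 (SE 0.40) and an adjusted p of 0.209. Sorted from the lowest Arntl to the highest, the mice stood in nearly the reverse of their order by Dbp, and only wild-type replicates 2 and 3 changed places. Both genes were picked with their groups known to be apart, in opposite directions. Only the order of the mice within each group was therefore free, and nothing further is read from it. Per2, also chosen after its values were seen, read 2.73, 3.60 and 3.92 FPKM against 6.16, 6.97 and 3.86 FPKM, and in this unit wild-type replicate 3 lay among the Ptpn6+/mev mice. In log2 CPM, as a difference from the wild-type mean, the margin was very narrow. Ptpn6+/mev replicate 3 was at -0.558 and wild-type replicate 3 at -0.552.

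**Figure D4:**
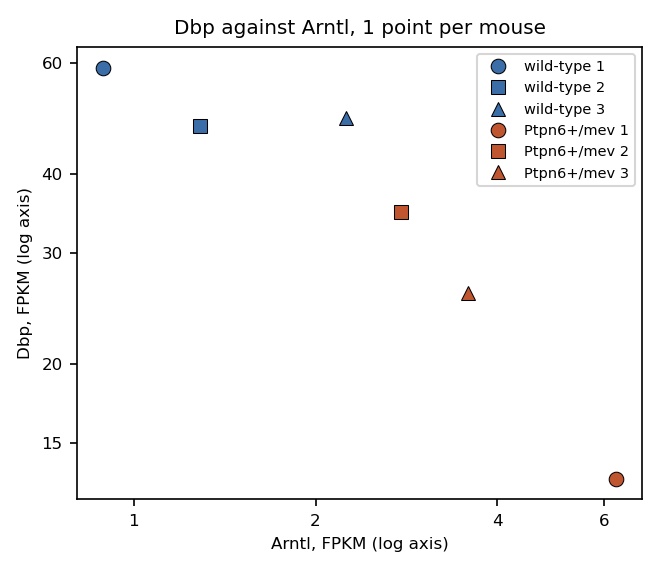
Dbp against Arntl in FPKM on log axes, 1 point per mouse (blue for wild-type, orange for Ptpn6+/mev). The mouse with the lowest Dbp, 13.2 FPKM, has the highest Arntl, 6.29 FPKM, and the mouse with the highest Dbp, 58.9 FPKM, has the lowest Arntl, 0.89 FPKM. The groups of both genes were already known to be apart when the genes were picked.

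**Figure D5:**
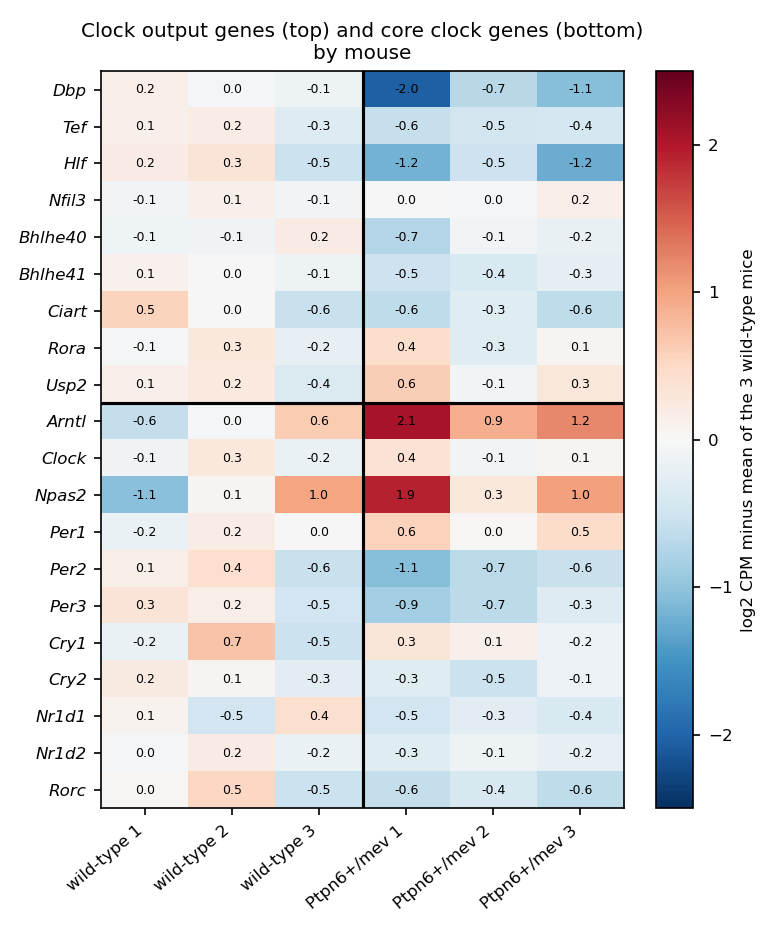
Difference of log2 CPM from the mean of the 3 wild-type mice (colour and number) for the 9 clock output genes (above the line) and 11 core clock genes (below it) in each mouse. Dbp is lowest in Ptpn6+/mev replicate 1, where Arntl and Npas2 are highest.

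Genes taken from earlier knowledge as dependent on the PAR bZIP factors, with kidney genes such as Aqp2 among them, were listed as well. Of 15, 12 passed the filter and 0 were called, with 1 higher and 6 lower at an unadjusted p under 0.05 (12.2% of all genes in either direction) and a median log2 fold change of -0.48. The one higher was Per1 and the lower ones include Per2 and Per3, which are counted among the core clock genes too. Among the 3 most abundant, Alas1, which begins heme synthesis, had a log2 fold change of -0.34 (SE 0.16), Cyp2a5 of -1.21 (SE 0.38) and Aqp2, the water channel of the collecting duct, of -0.54 (SE 0.47), and wild-type replicate 2 was highest for Cyp2a5 and Aqp2. In FPKM the groups did not overlap for 3 of the tested genes (6.38% of all genes were lower in this way), chosen after their values were seen. These were Por, the reductase that serves cytochromes P450 (-0.41, SE 0.07), Pdxk, the kinase of vitamin B6 (-0.34, SE 0.10), and Ppara, the receptor that drives fatty acid oxidation (-0.81, SE 0.17), all on the log2 scale and all lower. Of 10 markers of the proximal tubule, where many of these genes are expressed, 0 were called, 5 were lower and 0 higher at an unadjusted p under 0.05 (12.2% of all genes in either direction), and the median log2 fold change was -0.48. They ranged from Slc13a3 (-1.25, SE 0.24) and Slc22a6 (-1.11, SE 0.19) to Slc5a2 (-0.04, SE 0.11) and Slc5a12 (0.01, SE 0.17), and in FPKM 3 were lower in every Ptpn6+/mev mouse (6.38% of all genes). The summed FPKM of the 10 was 593 to 707 in Ptpn6+/mev and 840.1 to 968.5 in wild-type mice, and none was at 0. The part of the proximal tubule in the results for the listed genes and for Dbp, Tef and Hlf was not tested.

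Relatives of these factors in the bZIP and bHLH families were counted in the same way. Of 11 such genes, 10 passed the filter and 0 were called, with 0 higher and 1 lower at an unadjusted p under 0.05 (12.2% of all genes in either direction) and a median log2 fold change of -0.11. That gene, chosen after its values were seen, was Cebpa, a bZIP factor of differentiated epithelium, at 14.8, 18.1 and 17.2 FPKM in Ptpn6+/mev and 23.6, 22.4 and 22.3 FPKM in wild-type mice, with a log2 fold change of -0.51 (SE 0.10). The 3 most abundant, Hes6, Ddit3 and Hes1, had log2 fold changes of -0.09 (SE 0.10), 0.17 (SE 0.16) and -0.11 (SE 0.12).

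Glucocorticoid-responsive genes, which are known to move with stress and to reset clocks in peripheral tissues, were counted for the same reason. All 10, Per1 again among them, passed the filter and 0 were called, with 5 higher and 0 lower at an unadjusted p under 0.05 (12.2% of all genes in either direction) and a median log2 fold change of 0.33. The 3 most abundant, Mt1, Mt2 and Errfi1, lay near 0 at 0.05 (SE 0.16), 0.15 (SE 0.18) and -0.14 (SE 0.13). Errfi1 was the lowest of the list, and Zbtb16, named after its values were seen, the highest at 1.27 (SE 0.33). Dusp1 and Sgk1, named in the same way, were at 0.82 (SE 0.23) and 0.56 (SE 0.23). Tsc22d3 (GILZ), the one gene of the list whose groups did not overlap in FPKM (14% of all genes were higher in this way) and named after its values were seen, read 41.6, 23.2 and 45.4 FPKM in the Ptpn6+/mev mice and 23.0, 20.6 and 17.3 FPKM in the wild-type group, a log2 fold change of 0.79 (SE 0.24). The part of glucocorticoids in the levels of the 9 genes was not tested.

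The genes whose log2 CPM followed each member most closely over the 6 libraries were found by Pearson's r, which is given with no test, over points that fall into 2 groups and were picked from all 13036 genes. Those of Dbp were Il1f6 (r = 0.999), Arfrp1 (r = 0.994) and Tmem176a (r = 0.993). Those of Tef were Susd3 (r = 0.998), Mfsd9 (r = 0.992) and Zfp523 (r = 0.989), and those of Hlf were Cryl1 (r = 0.999), Mrpl12 (r = 0.994) and Zfyve21 (r = 0.994). The closest were Garnl3, Serinc2 and Agrn for Nfil3, Spin1, Dpy19l3 and Efna1 for Bhlhe40, Tmed1, Dpm3 and Tap2 for Bhlhe41. They were Selenbp2, Borcs6 and Pgm3 for Ciart, Nktr, Vldlr and Trim33 for Rora, Tceanc2, Klk1b3 and Rybp for Usp2, with r from 0.969 to 0.997 over these 6 members. On the scale of log2(FPKM + 1), 1 of the 3 genes was found again for Dbp, Tef, Hlf and Usp2 and 0 for the other 5 members.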

How the data were processed

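One mRNA sequencing experiment on kidneys was used, with 3 Ptpn6+/mev and 3 wild-type libraries grouped by their labels. The authors made poly-A libraries with 12 cycles of PCR, used TopHat to place the read pairs on GRCm38.p5 and Cufflinks to estimate expression, and the submitters' processing notes also name Bowtie2 and RSEM. The authors deposited 1 table with an estimated count per gene and library, which sums to 10271590 to 12361745 per library. The same deposited table gives FPKM values (fragments scaled to transcript length and to the library's total). The tool behind the counts and its use of strand are not given in the sources used here.

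Estimated counts were rounded to whole numbers (1744 genes had a fractional count) and entered into edgeR 4.0.16 (R 4.3.3) with TMM, filterByExpr, quasi-likelihood F-test, Benjamini-Hochberg adjustment over all 13036 tested genes, threshold 0.05. SE is the size of the log2 fold change over the square root of F. CPM are scaled by TMM, with a prior count of 2 on the log2 scale. Alternatives were DESeq2 1.42.0, edgeR's exact test, limma 3.58.1 on log2(FPKM + 1) and log2(FPKM + 0.1), other scalings and filters, the replicate block and each library left out. Fits were tested on simulated data. Positions came from GENCODE M21 and upstream sequence from RefSeq on GRCm38.p6, with figures by matplotlib 3.10.9.

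The members and lists were chosen with earlier results of these data known. The rule for names took all 9 members, the 3 genes of highest mean FPKM in each list and any list gene at an adjusted p under 0.05 (there was none), and the 3 most similar genes of each member; marker lists without an example are given by their counts or medians. Other names were chosen after their values were seen.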

Additional observations from a re-analysis of the deposited data

How the results depend on the processing

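Of 135 recomputed member fold changes over 15 alternatives, 126 kept their sign and their side of the threshold, 6 passed it newly and 3 changed sign. No member was called in the quasi-likelihood fit on all libraries, so no call could be lost. Those 3 were near 0: Rora at -0.11 without Ptpn6+/mev replicate 1 and -0.01 without wild-type replicate 3, and Nfil3 at -0.02 without Ptpn6+/mev replicate 3. With a library left out they ranged from -0.11 to 0.26 (Rora) and from -0.02 to 0.12 (Nfil3). The 6 new calls were Dbp, Tef and Hlf with DESeq2 (adjusted p 0.00351, 0.048 and 0.0214), Dbp and Hlf with edgeR's exact test (0.00774 and 0.0278) and Tef without wild-type replicate 3. The number of members called by the quasi-likelihood test was 0, against 3 with DESeq2 and 2 with the exact test, and it ranged from 0 to 1 when a library was left out. Over all genes the 18 calls became 387 with DESeq2, 390 with the exact test and 52 without a filter, and leaving out a library gave 1 to 231 calls. The lowest was without Ptpn6+/mev replicate 3, the highest without wild-type replicate 2, and between them were 4 without Ptpn6+/mev replicate 1, 12 without Ptpn6+/mev replicate 2, 9 without wild-type replicate 1 and 65 without wild-type replicate 3. The cause was not tested. Samples with the same replicate number did not deviate together (correlations of -0.14, -0.18 and -0.13). With 3 mice per group, whose group means were taken out, this cannot show whether the numbers pair the mice. With the replicate block, 1 gene and 0 members were called, and Dbp was at -1.25 (adjusted p 0.278). Ciart and Bhlhe41 rested on few fragments, 25 to 60 and 55 to 88 per library, and the SEs of their log2 fold changes were 0.34 and 0.19.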

Other observations

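Hypoxia-responsive genes, listed because Bhlhe40 and Bhlhe41 are known to respond to hypoxia, were all measured above the filter, 12 of 12, and 0 were called by edgeR's quasi-likelihood test. At an unadjusted p under 0.05, which 12.2% of all genes reached in either direction, 3 were lower and 0 higher, with a median log2 fold change of -0.22. The most abundant were Ldha, the lactate dehydrogenase subunit, with a log2 fold change of -0.08 (SE 0.07), Ndrg1 with 0.13 (SE 0.17) and Bnip3, a mitochondrial protein of mitophagy, with -0.60 (SE 0.23). In FPKM, 3 of the list were lower and 1, Pdk1, was higher in every Ptpn6+/mev mouse, where the shares of all genes were 6.38% and 14%.

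Markers of other cells and of injury gave the make-up of the samples. Of 9 tubular injury genes 4 were higher and 1 lower at an unadjusted p under 0.05 (12.2% of all genes) and 0 were called, with a median log2 fold change of 0.16. In FPKM, 4 were higher and 0 lower in every Ptpn6+/mev mouse, where the shares of all genes were 14% and 6.38%. These 4, named after their values were seen, were Havcr1, Krt8, Krt18 and Vcam1. Their log2 fold changes were 0.27 (SE 0.10), 0.28 (SE 0.09), 0.55 (SE 0.15) and 1.05 (SE 0.28). The most abundant, Spp1, Clu and Lcn2, had log2 fold changes of -0.38 (SE 0.14), 0.08 (SE 0.14) and -0.08 (SE 0.35). Proximal tubule markers included Slc34a1 (-0.34, SE 0.20), Slc22a6 (-1.11, SE 0.19) and Slc4a4 (-0.51, SE 0.23) on the log2 scale. The medians of the distal nephron, endothelial, podocyte, fibroblast, macrophage and neutrophil lists were -0.24, 0.15, 0.14, -0.09, 0.11 and 0.02, with no call in any list. Of the 10 distal nephron genes tested, 3 were lower and 0 higher at an unadjusted p under 0.05 (12.2% of all genes). In FPKM, 3 genes of that list were lower in every Ptpn6+/mev mouse (6.38% of all genes). Of 6 podocyte genes, 1 was higher at that p and 1 was higher in every Ptpn6+/mev mouse (14% of all genes). The other lists of this group had 0 of either kind. Wild-type replicate 2 was the lowest library for the endothelial, fibroblast and macrophage sums, and its summed fibroblast FPKM was 52.7, against up to 254.3 in wild-type and 148 to 233.4 in Ptpn6+/mev mice. Fat markers varied by mouse, with a summed FPKM of 0.92 to 68.9 in Ptpn6+/mev and 11.7 to 90.5 in wild-type mice, and Adipoq read 5.19, 0 and 0 against 4.36, 0.07 and 7.30 FPKM. Of the liver list, Ttr, the most abundant, read 33.0, 25.5 and 38.1 FPKM in Ptpn6+/mev and 23.8, 30.6 and 19.2 FPKM in wild-type mice, and Alb read 1.81, 1.70 and 2.23 against 3.68, 6.29 and 5.35 FPKM. Apoa1 was listed at 0 in every Ptpn6+/mev mouse and at 0.09, 0.26 and 0.16 FPKM in the wild-type mice, and 3 of 5 adrenal markers were listed at 0 in every library.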
